A study of Homo sapiens with 18 samples.

Results

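The 52 genes described here encode the machinery that separates the chromosomes and then the daughter cells. They were chosen by name and function, with no measured value in the rule, from the 26668 gene symbols of an RNA-seq table of 3 pancreatic cancer cell lines. Earlier results of these data were known when the choice was made. All 52 were in the table, and none fell under the filter of 1 FPKM (mean over the 6 libraries of a line), so each was tested in each line. FPKM is the number of fragments counted on a gene, scaled by the length of the gene and by the fragments of the library. The genes were sorted by function into 7 groups, called sub-complexes here although not all of them are single protein complexes. These held 5 spindle checkpoint genes, 5 genes of anaphase control, 15 of the kinetochore and centromere, 4 of the chromosomal passenger complex, 12 of the spindle, 5 of cytokinesis and 6 of condensin and topoisomerase.

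At mitosis, duplicated chromosomes are compacted by condensin and topoisomerase II, attached to spindle microtubules through kinetochores that are built on the centromere, and held together until every attachment has been made. Unattached kinetochores activate the spindle checkpoint, which keeps CDC20 from switching on the anaphase-promoting complex. Once the checkpoint is satisfied, separase cuts the cohesin rings, the sister chromatids move apart, and the central spindle directs a contractile ring that divides the cytoplasm. Most of these genes are transcribed late in the cell cycle, and many are repressed outside it by the DREAM complex through a promoter element known as the CHR.

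PANC-1, MIA PaCa-2 and PaTu 8988T are established human lines from pancreatic carcinoma. Each was sequenced as 3 control and 3 OFD1 knockdown libraries, 18 in all, and the comparison in each line asked how the knockdown moved these transcripts. OFD1 is a protein of the centriole and of the base of the cilium. The knockdown libraries came from cells of each line that carried a doxycycline-inducible short hairpin RNA (shRNA) against OFD1 and received doxycycline for 72 h. The control labels give a wild-type genotype, a control shRNA and no treatment, whereas the methods of the study describe the inducible knockdown cells given DMSO, so which cells served as controls was not settled. Every knockdown library and no control library came from cells given doxycycline, and the effect of the drug cannot be told apart from that of the shRNA. The series text places the controls at day 0 and the knockdown at day 3, so time in culture cannot be told apart from knockdown either. No label says that replicates were separate cultures, and the p-values therefore measure the spread between these libraries, which may be technical.

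Between 32486479 and 39797537 reads were counted per library, and members had between 115 and 39207 reads each. Control libraries had more reads than knockdown libraries in PANC-1 and in MIA PaCa-2, without overlap, whereas the groups overlapped in PaTu 8988T. FPKM is scaled to library size, and the part of the remaining depth difference in the results was not tested. OFD1 itself was lower in every knockdown library than in every control library of its line, with log2 fold changes of -1.07 in PANC-1 (± 0.0901, standard error), -0.61 in MIA PaCa-2 (± 0.159) and -1.10 in PaTu 8988T (± 0.103). Epithelial markers summed to at least 837 FPKM in every library, KRT19 was at or near 0 in PaTu 8988T, and EPCAM was at or near 0 in MIA PaCa-2. The endothelial and fibroblast lists each summed to at most 0.522 FPKM in any library, and CD3E was at 0 throughout. The 4 leukocyte markers, almost all of it CD68, summed to between 32.0 and 37.7 FPKM in the PANC-1 controls and between 17.0 and 19.5 in the knockdown. In MIA PaCa-2 the same sum ran from 49.3 to 67.4 and from 73.2 to 77.0, and in PaTu 8988T from 13.6 to 13.9 and from 9.77 to 11.7. PTPRC, which defines leukocytes, was at most 6.22 FPKM, in MIA PaCa-2, and the part of these markers in the results was not tested. Control replicate 2 of MIA PaCa-2 stood apart. It lay below both other controls of its line for 37 of the 52 members and above both for 12. Results of the members that rest on it are also given without it. The MIA PaCa-2 values of other gene lists include it.

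In PANC-1, all 52 members fell at an adjusted p below 0.05, and 35 of them fell past 2-fold (at the same adjusted p, with a ratio under 0.5). In MIA PaCa-2, 33 fell, 14 of them past 2-fold, none rose, and 19 did not pass. In PaTu 8988T, 6 fell, 8 rose, 38 did not pass and none passed 2-fold in either direction. The median log2 fold change over the members was -1.15 in PANC-1, -0.71 in MIA PaCa-2 and 0.044 in PaTu 8988T, and the medians of all genes tested were 0.060, -0.031 and 0.028. Log2 fold changes here and below are knockdown minus control, from limma on log2(FPKM + 0.1), with the moderated standard error after the ± sign, 3 libraries a group, and Benjamini-Hochberg adjustment over all genes of the line.

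Of the 10902 genes tested in PANC-1, 32.2% fell and 40.1% rose at an adjusted p below 0.05, and 4.84% fell and 1.75% rose past 2-fold. The members thus stood at 52 of 52 beside 32.2%, and at 35 of 52 beside 4.84%. In MIA PaCa-2, where 10758 genes were tested, 21.7% fell and 18.7% rose, and 3.68% fell and 4.07% rose past 2-fold. In PaTu 8988T, where 10698 genes were tested, 18.5% fell and 20.9% rose, and 0.841% fell and 0.159% rose past 2-fold. The 6 and 8 members that passed in PaTu 8988T were smaller shares of the 52 than the shares of all genes that passed in that line. With the spread estimated over all 18 libraries in place of the line's own 6, 1 member (ESPL1) fell and 3 (BUB3, BIRC5 and AURKA) rose in PaTu 8988T. In the same fit 46 members fell in PANC-1, and CENPK (adjusted p = 0.167), CKAP2 (adjusted p = 0.0768) and ECT2 (adjusted p = 0.0842) were among those that did not pass there. The shares of all genes in this fit are not given here. Whether fewer dividing cells or less of these transcripts per cell lay behind a lower level cannot be told apart in bulk RNA.

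The levels themselves separated in the same order. In PANC-1, all 3 knockdown libraries lay below all 3 controls for 52 of 52 members, against 33.4% of all genes, and 41.7% of genes had the knockdown libraries above the controls. In MIA PaCa-2, 37 members separated downward and none upward, against 31.3% and 28.0% of all genes. In PaTu 8988T, 9 separated downward and 15 upward, against 24.0% and 27.9%. An exact two-sided permutation test of 3 libraries against 3 cannot give p below 0.1, and every fully separated member reached that value.

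The 3 knockdown libraries of each line lay close together. Taken relative to the mean of its own controls, the median member stood at -1.13, -1.16 and -1.16 on the log2 scale in the 3 knockdown libraries of PANC-1, at -0.75, -0.70 and -0.74 in those of MIA PaCa-2, and at 0.060, -0.015 and 0.042 in those of PaTu 8988T. The control libraries of PANC-1 and PaTu 8988T lay between -0.025 and 0.016 on this scale. Those of MIA PaCa-2 lay at 0.13, -0.26 and 0.12, and replicate 2 was the low one. The median ratio of SD to mean over the members was 17.2% in the MIA PaCa-2 controls, against 2.73% in its knockdown libraries and between 2.94% and 5.05% in the groups of the other lines.

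The 7 sub-complexes all fell in PANC-1. Kinetochore and centromere genes had the lowest median log2 fold change, -1.31, with 10 of 15 past 2-fold. Condensin and topoisomerase followed at -1.27 with 5 of 6 past 2-fold, the spindle at -1.18 with 10 of 12, and the checkpoint at -1.15 with 4 of 5. Anaphase control stood at -1.02 with 3 of 5, the passenger complex at -0.98 with 1 of 4, and cytokinesis at -0.77 with 2 of 5. The lowest and highest medians were 0.54 apart, which was less than the range of single members inside the kinetochore group, from -1.88 to -0.41. No test was made of a difference between sub-complexes, and their order is a description.

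In MIA PaCa-2 the order was another one. The spindle genes stood lowest at -1.13, with 10 of 12 lower and 6 past 2-fold, followed by the passenger complex at -0.91, with 4 of 4 lower. Condensin and topoisomerase stood at -0.69 (3 of 6 lower), kinetochore and centromere at -0.59 (7 of 15), anaphase control at -0.57 (3 of 5), cytokinesis at -0.57 (3 of 5) and the checkpoint at -0.42 (3 of 5). The spread of these medians was 0.71. Without control replicate 2, all 52 members were lower, 18 of them past 2-fold, against 39.8% and 3.78% of all genes in the same fit. The medians then became -1.15 for the spindle, -0.83 for condensin and topoisomerase, -0.79 for the passenger complex, -0.75 for the kinetochore, -0.74 for the checkpoint, -0.64 for anaphase control and -0.62 for cytokinesis.

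In PaTu 8988T the medians of the 7 sub-complexes lay between -0.046 for condensin and topoisomerase and 0.12 for the passenger complex. Both the lower and the higher calls were spread over several groups. Lower at an adjusted p below 0.05 were ESPL1 in anaphase control, HJURP and CENPF in the kinetochore group, TPX2 and CKAP5 in the spindle group and ANLN in cytokinesis. Higher were BUB3 in the checkpoint, CENPA, CENPN, NDC80 and SKA1 in the kinetochore group, AURKB and BIRC5 in the passenger complex, and AURKA in the spindle group. Of the members described with values per library, BUB1B (lower) and PLK1 (higher) also passed in PaTu 8988T without knockdown replicate 1, and CENPU, CKAP2 and ECT2 (all higher) without knockdown replicate 2.

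**Figure D1:**
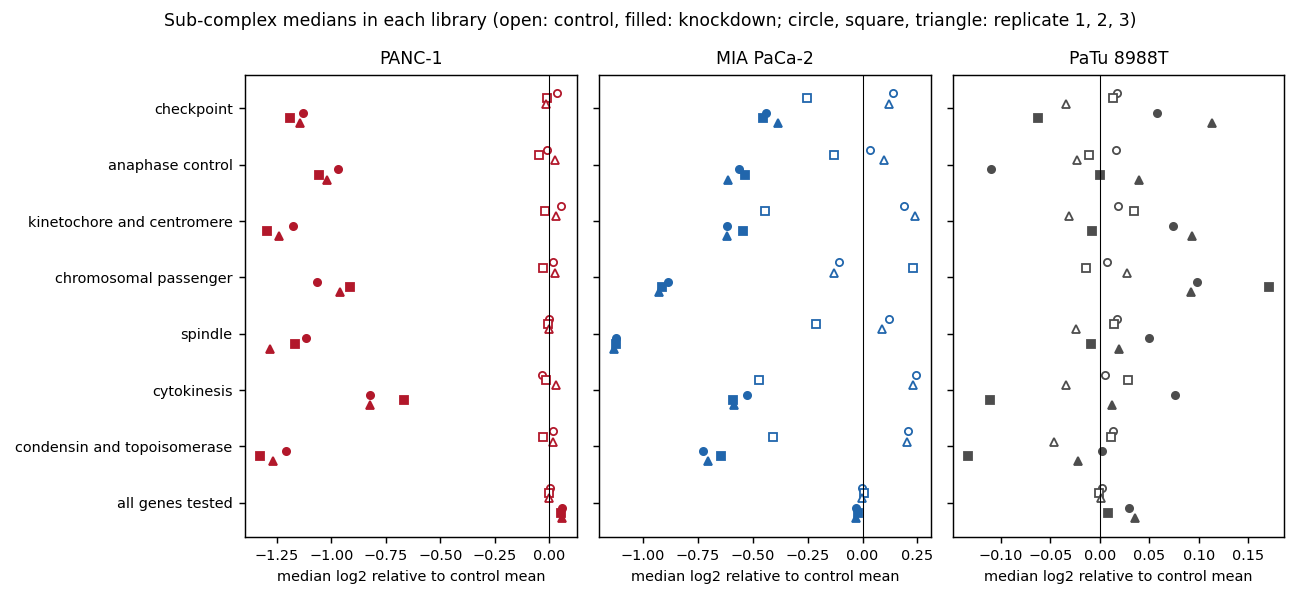
Median log2 level of the members of each sub-complex (rows) in each library, relative to the mean of the line's 3 controls (x axis), with 1 panel a line and x scales that differ between panels. The last row is the median of all genes tested. Open points are control libraries and filled points are knockdown libraries. In PANC-1 the knockdown points of every sub-complex lie left of its control points, whereas those of all genes tested lie right of theirs. The MIA PaCa-2 control points of the sub-complexes are split by replicate 2, and the PaTu 8988T points of both groups lie between -0.13 and 0.17.

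A total of 13 members fell past 2-fold in both PANC-1 and MIA PaCa-2. They were CDC20, ESPL1, CENPN, SPC25, BIRC5, PLK1, TPX2, TACC3, CKAP5, SPAG5, GTSE1, ANLN and NCAPG. CENPA passed 2-fold in MIA PaCa-2 only, another 22 members in PANC-1 only, and 16 in no line. These counts include MIA PaCa-2 control replicate 2. Without it, CDC20 (-0.93 in MIA PaCa-2) left the 13. BUB1B (-1.02), NDC80 (-1.15), AURKA (-1.07) and SMC4 (-1.21) then passed 2-fold in both lines too. The share of all genes past 2-fold in both lines is not given here. RefSeq promoter windows of GRCh38.p14, from 250 bases before to 50 bases after the annotated gene start, were matched for 44 of the 52 members and not for AURKA, BIRC5, BUB3, CENPM, KNL1, RACGAP1, TPX2 and TTK. The window of TACC3 held neither CHR-like letters nor CCAAT. That window (chromosome 4, 1720381 to 1720680) ends before the GENCODE start of the gene at 1721490, so bases around that start were not searched. The 10 other members of the 13 with a window are given here as 90 bases each, because they share letters near the start that the choice of members did not use. Capitals mark 3 words on both strands, so that each is also marked as its reverse complement. The first is TTTGAA. Its variant with an inner pair of A, written TTTAAA, is the next. The last word marked is CCAAT. Coordinates are those of GRCh38.p14, and each sequence is written 5′ to 3′ on the strand of its gene.
CDC20 (chr1:43358856-43358945, plus strand): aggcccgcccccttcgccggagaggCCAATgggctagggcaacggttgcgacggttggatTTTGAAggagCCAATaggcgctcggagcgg
ESPL1 (chr12:53268208-53268297, plus strand): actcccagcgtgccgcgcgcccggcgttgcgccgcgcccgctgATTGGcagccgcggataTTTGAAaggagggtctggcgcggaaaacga
CENPN (chr16:81007154-81007243, plus strand): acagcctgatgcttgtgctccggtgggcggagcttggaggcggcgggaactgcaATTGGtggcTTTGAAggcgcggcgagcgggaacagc
SPC25 (chr2:168890404-168890493, minus strand): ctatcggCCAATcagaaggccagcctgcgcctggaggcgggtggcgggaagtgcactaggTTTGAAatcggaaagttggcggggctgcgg
PLK1 (chr16:23678800-23678889, plus strand): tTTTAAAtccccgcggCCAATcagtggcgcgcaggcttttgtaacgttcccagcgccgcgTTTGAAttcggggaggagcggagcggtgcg
CKAP5 (chr11:46846251-46846340, minus strand): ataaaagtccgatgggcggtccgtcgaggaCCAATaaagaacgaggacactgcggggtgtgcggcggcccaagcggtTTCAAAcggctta
SPAG5 (chr17:28598996-28599085, minus strand): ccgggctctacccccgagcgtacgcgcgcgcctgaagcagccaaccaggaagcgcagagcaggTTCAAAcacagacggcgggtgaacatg
GTSE1 (chr22:46296810-46296899, plus strand): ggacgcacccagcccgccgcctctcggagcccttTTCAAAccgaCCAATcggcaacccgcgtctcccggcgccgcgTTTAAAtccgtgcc
ANLN (chr7:36389782-36389871, plus strand): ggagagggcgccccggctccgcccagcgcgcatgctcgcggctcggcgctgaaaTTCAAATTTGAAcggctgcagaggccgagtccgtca
NCAPG (chr4:17810884-17810973, plus strand): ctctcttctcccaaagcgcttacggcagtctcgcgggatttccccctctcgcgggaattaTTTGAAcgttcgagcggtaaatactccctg
Each of these 10 stretches was placed around the TTTGAA or TTTAAA match closest to the start, on 1 strand or the other. A match in every stretch is therefore given by the placing and is not a result. In ANLN the word TTTGAA follows directly on its own reverse complement. CENPN, CKAP5, GTSE1, ESPL1, PLK1, SPC25 and CDC20 also show CCAAT or its reverse complement in the printed stretch.

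TTTGAA, the core of the CHR, was found in the windows of 31 of the 44 members (70.5%), against 18.2% of 27305 genes with a window of the same length. TTTAAA, the other common form, was found in 9 (20.5%, against 14.5%), and either of them in 35 (79.5%, against 27.9%). CCAAT, the site of the factor NF-Y, was found in 30 (68.2%, against 39.7%), and it stood together with TTTGAA or TTTAAA in 24 (54.5%, against 11.2%). The match closest to the start lay within 50 bases of it in 29 of the 35, and the share of all genes is not given here for this count. The start is the RefSeq one, which lies inside the GENCODE gene for some members, PLK1 and CENPN among them. Windows of 9 of 12 mitotic kinesins, 0 of 8 replicative helicase genes and 4 of 10 centriole duplication genes held TTTGAA. These are letter matches, not binding sites.

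Members with and without TTTGAA had log2 fold changes that overlapped widely. In PANC-1 the median was -1.21 for the 31 with the word, which ran from -2.18 to -0.37, and -0.98 for the 13 without it, which ran from -1.78 to -0.39. In MIA PaCa-2 the medians were -0.83 and -0.57, and in PaTu 8988T 0.0088 and 0.045. TACC3, with no match in a window that ends before its GENCODE start, fell more than most members that had one.

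The checkpoint genes encode the sensors of unattached kinetochores. TTK is the kinase at the top of the checkpoint, BUB1 is the kinase it brings to the kinetochore, BUB1B and MAD2L1 bind and inhibit CDC20, and BUB3 carries BUB1 and BUB1B to their kinetochore platform. BUB1B (chromosome 15, 40161023 to 40221136, plus strand, GRCh38) stood at 32.9, 31.4 and 31.9 FPKM in the PANC-1 controls (replicates 1, 2 and 3, in this order throughout) and at 13.5, 13.03 and 14.2 in the knockdown libraries. MIA PaCa-2 libraries had 30.3, 23.03 and 29.8 FPKM in the controls and 14.9, 14.9 and 14.6 in the knockdown, and PaTu 8988T libraries had 23.4, 24.2 and 24.4 and 23.3, 20.6 and 22.5. Knockdown libraries lay below the controls in all 3 lines. For BUB1B, limma gave a log2 fold change of -1.23 ± 0.0433 for PANC-1 (adjusted p = 5.02e-09), -0.89 ± 0.121 for MIA PaCa-2 (adjusted p = 0.00205) and -0.12 ± 0.0513 for PaTu 8988T (adjusted p = 0.0938).

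BUB3 had the smallest fall of the checkpoint genes in PANC-1, and in PaTu 8988T it rose. It stood at 21.8, 20.6 and 21.6 FPKM in the PANC-1 controls and at 19.1, 18.1 and 18.1 after knockdown, at 33.7, 31.7 and 33.9 and 26.1, 26.9 and 25.3 in MIA PaCa-2, and at 19.8, 19.4 and 18.4 and 22.9, 22.4 and 23.0 in PaTu 8988T. The groups did not overlap in any line, with knockdown below control in PANC-1 and MIA PaCa-2 and above it in PaTu 8988T. For BUB3, limma gave a log2 fold change of -0.21 ± 0.0419 for PANC-1 (adjusted p = 0.00118), -0.34 ± 0.0725 for MIA PaCa-2 (adjusted p = 0.0108) and 0.25 ± 0.0428 for PaTu 8988T (adjusted p = 0.00192). Leaving out knockdown replicate 1 or 3 of MIA PaCa-2 took BUB3 over the threshold there (adjusted p = 0.0587 and 0.0666). The other 3 genes fell past 2-fold in PANC-1, with log2 fold changes of -1.24 for BUB1, -1.15 for TTK and -1.04 for MAD2L1. In MIA PaCa-2, BUB1 fell by 0.71 on the log2 scale, whereas TTK (-0.42, adjusted p = 0.239) and MAD2L1 (-0.31, adjusted p = 0.0828) did not pass. Without control replicate 2 both passed, at -0.74 and -0.43, and BUB1B passed 2-fold at -1.02.

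Anaphase control comprises CDC20, which activates the anaphase-promoting complex, ESPL1, the protease separase that opens cohesin, PTTG1, the securin that holds separase inactive, and the shugoshins SGO1 and SGO2, which protect cohesin at the centromere. ESPL1 (chromosome 12, 53268299 to 53293643, plus strand) was at 8.90, 7.85 and 8.07 FPKM in the PANC-1 controls and at 2.32, 2.598 and 2.48 in the knockdown libraries. MIA PaCa-2 had 14.004, 19.4 and 14.2 FPKM in the controls and 5.39, 5.15 and 5.42 after knockdown, with control replicate 2 the highest. PaTu 8988T had 16.6, 16.4 and 17.3 and 11.98, 12.5 and 12.2. ESPL1 was 1 of 5 members that fell in all 3 lines, and its groups did not overlap in any. The share of all genes that fell in all 3 lines is not given here. For ESPL1, limma gave a log2 fold change of -1.71 ± 0.0763 for PANC-1 (adjusted p = 2.54e-08), -1.54 ± 0.143 for MIA PaCa-2 (adjusted p = 0.000552) and -0.45 ± 0.0448 for PaTu 8988T (adjusted p = 7.69e-05).

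CDC20 fell in PANC-1 and MIA PaCa-2 and not in PaTu 8988T. It was at 62.5, 62.9 and 60.1 FPKM in the PANC-1 controls and 31.5, 29.7 and 30.4 after knockdown, and at 247, 301 and 243 and 129.8, 123 and 133 in MIA PaCa-2. In PaTu 8988T its 120.5, 119.6 and 117 FPKM in the controls and 105, 125 and 122 after knockdown overlapped. For CDC20, limma gave a log2 fold change of -1.02 ± 0.0341 for PANC-1 (adjusted p = 3.63e-09), -1.03 ± 0.0956 for MIA PaCa-2 (adjusted p = 0.000553) and -0.025 ± 0.0593 for PaTu 8988T (adjusted p = 0.758). Without MIA PaCa-2 control replicate 2, CDC20 stood at -0.93 and no longer passed 2-fold in that line.

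SGO2 had the smallest fall of the group in PANC-1. It was at 9.04, 9.01 and 9.28 FPKM in the PANC-1 controls and 5.90, 6.47 and 5.90 after knockdown, which did not overlap (log2 fold change -0.58 ± 0.0574, adjusted p = 9.22e-06). In MIA PaCa-2 the controls had 11.4, 4.62 and 10.8 FPKM and the knockdown libraries 9.13, 9.495 and 9.66. Control replicate 2 lay far below every other library there, and the log2 fold change was 0.18 with it (adjusted p = 0.683) and -0.23 without it (adjusted p = 0.00228). PaTu 8988T had 3.83, 3.44 and 3.17 and 3.21, 2.26 and 3.101 FPKM, which overlapped (log2 fold change -0.29, adjusted p = 0.106). PTTG1 fell by 1.19 on the log2 scale in PANC-1 and by 0.57 in MIA PaCa-2, but it has near-identical copies in the genome that can share its reads, so its values are uncertain. SGO1 stood at -0.60, -0.24 and 0.044 in PANC-1, MIA PaCa-2 and PaTu 8988T, and passed in PANC-1.

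The kinetochore is built in layers. CENPA is the histone H3 variant that marks the centromere and HJURP is its chaperone. CENPK, CENPM, CENPN and CENPU belong to the inner complex that binds CENPA chromatin, and KNL1, NDC80, NUF2, SPC24 and SPC25 to the outer network that holds microtubules. SKA1 and SKA3 strengthen that hold, and CENPE and CENPF join at the outermost layer.

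SPC25 (chromosome 2, 168834132 to 168913371, minus strand), a subunit of the NDC80 complex, had the lowest log2 fold change of the group in PANC-1 and in MIA PaCa-2. The RefSeq start used for its promoter lies inside this GENCODE gene. Its levels were 8.64, 9.23 and 10.4 FPKM in the PANC-1 controls and 2.53, 2.66 and 2.27 after knockdown, and 29.9, 24.9 and 28.6 and 8.63, 8.71 and 9.95 in MIA PaCa-2. PaTu 8988T had 15.8, 15.04 and 15.8 FPKM in the controls and 16.4, 16.4 and 16.6 after knockdown, a small separation in the upward direction. For SPC25, limma gave a log2 fold change of -1.88 ± 0.0873 for PANC-1 (adjusted p = 3.29e-08), -1.60 ± 0.107 for MIA PaCa-2 (adjusted p = 0.000202) and 0.081 ± 0.0428 for PaTu 8988T (adjusted p = 0.159). At least 132 reads were counted on SPC25 in each PANC-1 library, one of the lowest counts among the members.

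NDC80, which gives that complex its name and grips the microtubule, fell in PANC-1 and MIA PaCa-2 and rose in PaTu 8988T. Its PANC-1 levels were 17.4, 14.8 and 17.1 FPKM in the controls and 5.88, 5.90 and 5.39 after knockdown. MIA PaCa-2 controls had 54.96, 36.1 and 56.3 FPKM, with replicate 2 the lowest, and its knockdown libraries 25.03, 25.8 and 24.3. PaTu 8988T controls had 43.8, 44.3 and 40.7 FPKM and its knockdown libraries 54.1, 52.8 and 51.3. None of these groups overlapped. For NDC80, limma gave a log2 fold change of -1.504 ± 0.0714 for PANC-1 (adjusted p = 3.85e-08), -0.94 ± 0.174 for MIA PaCa-2 (adjusted p = 0.00645) and 0.30 ± 0.0436 for PaTu 8988T (adjusted p = 0.000769). Without MIA PaCa-2 control replicate 2 it was -1.15 in that line, past 2-fold. The other subunits stood at -1.36 (NUF2) and -0.90 (SPC24) in PANC-1 and at -0.58 and -0.59 in MIA PaCa-2, where NUF2 did not pass (adjusted p = 0.0709) until control replicate 2 was left out (-0.85).

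CENPN reads the CENPA nucleosome, and it too moved in opposite directions. PANC-1 had 12.7, 12.1 and 11.3 FPKM in the controls and 5.26, 6.15 and 6.33 after knockdown, MIA PaCa-2 had 17.8, 14.6 and 17.95 and 6.86, 6.33 and 7.04, and PaTu 8988T had 15.5, 15.9 and 15.2 and 18.5, 18.4 and 17.9, none of them overlapping. For CENPN, limma gave a log2 fold change of -1.02 ± 0.0768 for PANC-1 (adjusted p = 1.21e-06), -1.30 ± 0.113 for MIA PaCa-2 (adjusted p = 0.000451) and 0.23 ± 0.0420 for PaTu 8988T (adjusted p = 0.00233). CENPA itself went from 11.4, 12.8 and 12.9 FPKM to 6.98, 8.13 and 8.20 in PANC-1, from 45.1, 48.1 and 47.3 to 21.8, 22.3 and 22.98 in MIA PaCa-2 and from 33.6, 32.7 and 33.3 to 36.7, 36.3 and 36.8 in PaTu 8988T. Its groups did not overlap in any line, and MIA PaCa-2 control replicate 2 was close to the other controls. For CENPA, limma gave a log2 fold change of -0.67 ± 0.0743 for PANC-1 (adjusted p = 2.09e-05), -1.06 ± 0.0704 for MIA PaCa-2 (adjusted p = 0.000199) and 0.14 ± 0.0355 for PaTu 8988T (adjusted p = 0.012). The PaTu 8988T call of CENPA was lost without control replicate 2 (adjusted p = 0.0588) or knockdown replicate 3 (adjusted p = 0.0515).

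CENPK, another inner subunit, had the smallest fall of the 15 in PANC-1. PANC-1 had 4.12, 3.59 and 4.04 FPKM in the controls and 3.001, 2.36 and 3.51 after knockdown, which did not overlap (log2 fold change -0.41 ± 0.131, adjusted p = 0.0173). Without PANC-1 control replicate 1 its adjusted p was 0.0556. MIA PaCa-2 had 6.60, 2.83 and 6.89 FPKM in the controls and 5.63, 6.27 and 6.18 after knockdown, so that control replicate 2 alone lay below the knockdown libraries. The log2 fold change there was 0.25 (adjusted p = 0.577), and -0.16 (adjusted p = 0.0437) without that library. PaTu 8988T had overlapping levels, 4.74, 3.79 and 4.11 and 4.62, 3.72 and 4.73 FPKM (log2 fold change 0.045, adjusted p = 0.766).

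The other 8 members of the group all fell in PANC-1, with log2 fold changes of -1.80 for HJURP, -1.47 for CENPM, -1.41 for CENPU, -1.31 for KNL1, -1.31 for CENPF, -1.10 for CENPE, -0.88 for SKA3 and -0.70 for SKA1. In MIA PaCa-2, HJURP (-0.68) and SKA3 (-0.81) fell, and CENPM, CENPU, KNL1, CENPF, CENPE and SKA1 did not pass, with log2 fold changes between -0.70 (CENPM) and -0.15 (CENPU). Without control replicate 2 these 6 all passed, between -0.89 (KNL1) and -0.37 (CENPM). In PaTu 8988T, SKA1 rose by 0.36 on the log2 scale (adjusted p = 0.000837), and HJURP (-0.22) and CENPF (-0.28) fell.

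The chromosomal passenger complex corrects faulty attachments and later acts at the midzone. AURKB is its kinase, INCENP its scaffold, and BIRC5 (survivin) and CDCA8 (borealin) bring it to the centromere. Its log2 fold changes spanned the narrowest range of the 7 sub-complexes in each line. It also had the fewest members, and a range tends to be narrower with fewer members. All 4 members fell in both PANC-1 and MIA PaCa-2. BIRC5 (chromosome 17, 78214186 to 78225636, plus strand) was at 43.8, 42.9 and 44.7 FPKM in the PANC-1 controls and 19.8, 19.6 and 17.96 after knockdown, at 81.2, 97.9 and 78.9 and 39.8, 38.7 and 37.7 in MIA PaCa-2, and at 48.2, 48.1 and 51.7 and 54.9, 57.7 and 57.9 in PaTu 8988T. Its knockdown libraries lay below the controls in the former lines and above them in PaTu 8988T. For BIRC5, limma gave a log2 fold change of -1.19 ± 0.0434 for PANC-1 (adjusted p = 6.31e-09), -1.14 ± 0.0977 for MIA PaCa-2 (adjusted p = 0.000428) and 0.20 ± 0.0426 for PaTu 8988T (adjusted p = 0.0048).

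AURKB followed the same pattern with smaller steps. It was at 26.6, 23.6 and 26.8 FPKM in the PANC-1 controls and 12.1, 14.2 and 12.6 after knockdown, at 98.7, 132 and 98.9 and 63.6, 64.1 and 60.8 in MIA PaCa-2, and at 50.9, 51.1 and 50.7 and 54.4, 55.8 and 53.7 in PaTu 8988T, with no overlap in any line. For AURKB, limma gave a log2 fold change of -0.98 ± 0.0683 for PANC-1 (adjusted p = 6.56e-07), -0.79 ± 0.124 for MIA PaCa-2 (adjusted p = 0.00349) and 0.10 ± 0.0342 for PaTu 8988T (adjusted p = 0.0413). The rise of AURKB in PaTu 8988T did not pass when any 1 of its 6 libraries was left out (adjusted p from 0.053 to 0.111). INCENP went from 9.99, 9.56 and 9.71 FPKM to 5.81, 5.35 and 5.81 in PANC-1, from 26.9, 33.7 and 27.3 to 16.6, 16.4 and 16.3 in MIA PaCa-2 and from 19.7, 19.7 and 19.2 to 19.995, 20.2 and 20.8 in PaTu 8988T. For INCENP, limma gave a log2 fold change of -0.78 ± 0.0568 for PANC-1 (adjusted p = 9.31e-07), -0.83 ± 0.106 for MIA PaCa-2 (adjusted p = 0.00165) and 0.057 ± 0.0400 for PaTu 8988T (adjusted p = 0.281). CDCA8 stood at -0.98, -0.99 and 0.14. MIA PaCa-2 control replicate 2 was the highest control for all 4 genes, the opposite of its place in most other members, and without it the 4 log2 fold changes ran from -1.05 (BIRC5) to -0.65 (AURKB).

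In the spindle group, AURKA is the kinase of the spindle poles, TPX2 activates it and carries it to microtubules, and TACC3, which AURKA phosphorylates, recruits the microtubule polymerase CKAP5 to the kinetochore fibres. PLK1 is the kinase that drives pole maturation and many later steps. SPAG5 (astrin) and KNSTRN work as partners at attached kinetochores, and CKAP2, NUSAP1, HMMR, DLGAP5 and GTSE1 bind spindle microtubules.

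TACC3 (chromosome 4, 1721490 to 1745176, plus strand) had the lowest mean log2 fold change over the 3 lines of all members. Its PANC-1 levels were 25.96, 24.5 and 23.4 FPKM in the controls and 7.49, 6.91 and 6.82 after knockdown. MIA PaCa-2 controls had 60.3, 77.5 and 61.8 FPKM and all 3 knockdown libraries 17.5, 17.5 and 17.5. PaTu 8988T had 48.8, 49.3 and 48.3 and 46.3, 45.9 and 46.2. The groups did not overlap in any line, and the gap in PaTu 8988T was narrow. For TACC3, limma gave a log2 fold change of -1.78 ± 0.0555 for PANC-1 (adjusted p = 2.4e-09), -1.91 ± 0.109 for MIA PaCa-2 (adjusted p = 0.000168) and -0.081 ± 0.0335 for PaTu 8988T (adjusted p = 0.0817).

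TPX2 had the highest control FPKM of any member in PANC-1, at 138, 143 and 139 in the controls and 36.6, 37.6 and 36.8 after knockdown. MIA PaCa-2 had 178, 129.9 and 173 FPKM and 65.8, 63.4 and 64.0, and PaTu 8988T 96.97, 95.5 and 96.7 and 88.9, 82.8 and 86.4. TPX2 fell in all 3 lines, and no groups overlapped. For TPX2, limma gave a log2 fold change of -1.91 ± 0.0265 for PANC-1 (adjusted p = 2.4e-11), -1.30 ± 0.125 for MIA PaCa-2 (adjusted p = 0.000629) and -0.16 ± 0.0369 for PaTu 8988T (adjusted p = 0.00693). CKAP5 also fell in all 3 lines, with log2 fold changes of -1.43, -1.26 and -0.15 (adjusted p = 0.0134 in PaTu 8988T, and 0.054 without control replicate 2).

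AURKA, the partner of TPX2, did not follow it in PaTu 8988T. It went from 45.9, 43.95 and 45.8 FPKM to 23.02, 22.4 and 22.2 in PANC-1, from 74.3, 63.0 and 72.7 to 34.9, 35.6 and 34.4 in MIA PaCa-2 and from 52.96, 50.1 and 52.4 to 60.4, 58.1 and 58.99 in PaTu 8988T, without overlap. For AURKA, limma gave a log2 fold change of -1.002 ± 0.0341 for PANC-1 (adjusted p = 4.02e-09), -0.99 ± 0.0844 for MIA PaCa-2 (adjusted p = 0.000419) and 0.19 ± 0.0376 for PaTu 8988T (adjusted p = 0.00348). Without MIA PaCa-2 control replicate 2 it was -1.07 there, past 2-fold. PLK1 went from 42.7, 42.6 and 42.4 FPKM to 20.6, 18.9 and 17.96 in PANC-1, from 136, 153 and 132 to 56.1, 55.8 and 58.98 in MIA PaCa-2 and from 86.4, 84.9 and 84.9 to 88.1, 96.3 and 92.1 in PaTu 8988T. For PLK1, limma gave a log2 fold change of -1.15 ± 0.0480 for PANC-1 (adjusted p = 1.48e-08), -1.30 ± 0.0773 for MIA PaCa-2 (adjusted p = 0.000173) and 0.11 ± 0.0397 for PaTu 8988T (adjusted p = 0.0534).

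SPAG5 and GTSE1 had the smallest adjusted p in MIA PaCa-2 of the members that passed 2-fold in both PANC-1 and MIA PaCa-2, and MIA PaCa-2 control replicate 2 sat with the other controls for both. SPAG5 went from 39.9, 38.5 and 37.8 FPKM to 11.3, 12.01 and 10.9 in PANC-1 and from 59.2, 58.8 and 56.9 to 20.8, 20.97 and 21.1 in MIA PaCa-2, while its PaTu 8988T levels of 96.8, 96.05 and 94.1 and 98.7, 99.4 and 95.4 overlapped. For SPAG5, limma gave a log2 fold change of -1.75 ± 0.0450 for PANC-1 (adjusted p = 7.53e-10), -1.47 ± 0.0656 for MIA PaCa-2 (adjusted p = 0.000156) and 0.033 ± 0.0340 for PaTu 8988T (adjusted p = 0.474). GTSE1 went from 9.51, 9.71 and 10.04 FPKM to 2.81, 3.12 and 3.60 in PANC-1 and from 23.1, 23.03 and 21.99 to 8.32, 8.16 and 8.20 in MIA PaCa-2, and had overlapping levels of 16.3, 16.8 and 16.1 and 16.6, 16.4 and 16.5 in PaTu 8988T. For GTSE1, limma gave a log2 fold change of -1.596 ± 0.0863 for PANC-1 (adjusted p = 9.64e-08), -1.45 ± 0.0758 for MIA PaCa-2 (adjusted p = 0.000156) and 0.0088 ± 0.0409 for PaTu 8988T (adjusted p = 0.882).

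CKAP2 stood at the other end of the group. It went from 13.001, 12.1 and 12.4 FPKM to 9.56, 9.23 and 9.71 in PANC-1 (log2 fold change -0.39 ± 0.0491, adjusted p = 4.87e-05). MIA PaCa-2 had 43.3, 21.8 and 43.02 FPKM in the controls and 33.5, 33.7 and 32.8 after knockdown, so that control replicate 2 lay below the knockdown libraries and the other controls above them. Its log2 fold change there was -0.043 (adjusted p = 0.906), and -0.37 (adjusted p = 4.73e-06) without that library. PaTu 8988T had 33.1, 33.1 and 32.1 and 41.2, 32.3 and 38.2 FPKM, which overlapped (log2 fold change 0.18, adjusted p = 0.0929). The remaining spindle genes fell in PANC-1, with -1.21 for DLGAP5, -1.09 for HMMR, -1.08 for NUSAP1 and -0.78 for KNSTRN. In MIA PaCa-2 they stood at -0.65, -0.17, -0.53 and -0.76, and HMMR alone did not pass (adjusted p = 0.622, and -0.49 on the log2 scale without control replicate 2, where it passed).

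In cytokinesis, PRC1 bundles the microtubules of the midzone, RACGAP1 is part of centralspindlin, ECT2 activates the small GTPase RhoA at the cell equator, ANLN (anillin) ties the contractile ring together, and CEP55 prepares the final cut. ANLN (chromosome 7, 36389806 to 36453791, plus strand) had the largest fall of any member in PANC-1, from 60.96, 59.9 and 61.8 FPKM in the controls to 13.5, 13.3 and 13.4. MIA PaCa-2 had 129, 78.6 and 128 FPKM in the controls, with replicate 2 the lowest, and 42.8, 42.2 and 43.2 after knockdown. PaTu 8988T had 60.5, 60.98 and 61.3 and 56.8, 52.04 and 56.2. ANLN fell in all 3 lines, with no overlap in any. For ANLN, limma gave a log2 fold change of -2.18 ± 0.0322 for PANC-1 (adjusted p = 3.44e-11), -1.35 ± 0.191 for MIA PaCa-2 (adjusted p = 0.0024) and -0.15 ± 0.0413 for PaTu 8988T (adjusted p = 0.0189). The PaTu 8988T call of ANLN was lost without any 1 of the 3 controls (adjusted p from 0.0507 to 0.0637).

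ECT2, whose product works beside ANLN at the ring, had smaller changes. It went from 32.2, 31.9 and 33.1 FPKM to 24.8, 24.0 and 26.4 in PANC-1 (log2 fold change -0.37 ± 0.0416, adjusted p = 2.21e-05). MIA PaCa-2 had 64.4, 32.96 and 63.7 FPKM in the controls and 48.4, 48.9 and 46.9 after knockdown, with control replicate 2 again below the knockdown libraries. The log2 fold change there was -0.094 (adjusted p = 0.79), and -0.41 (adjusted p = 2.65e-06) without it. PaTu 8988T had overlapping levels of 52.9, 53.3 and 49.8 and 60.3, 48.1 and 55.9 (log2 fold change 0.070, adjusted p = 0.476). PRC1 fell by 1.29 on the log2 scale in PANC-1 and by 0.91 in MIA PaCa-2, and RACGAP1 by 0.71 and 0.57. CEP55 fell by 0.77 in PANC-1, did not pass in MIA PaCa-2 (-0.36, adjusted p = 0.202), and passed there at -0.62 without control replicate 2.

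SMC2 and SMC4 form the hinged arms of condensin, NCAPD2, NCAPG and NCAPH are the further subunits of condensin I, and TOP2A is the topoisomerase that untangles sister chromatids. NCAPG (chromosome 4, 17810902 to 17844862, plus strand) went from 11.3, 10.4 and 10.4 FPKM to 3.73, 3.34 and 3.42 in PANC-1, from 35.9, 25.7 and 35.4 to 14.2, 15.6 and 14.8 in MIA PaCa-2 and from 35.4, 34.6 and 33.5 to 32.8, 30.3 and 33.2 in PaTu 8988T. Knockdown libraries lay below the controls in all 3 lines, narrowly in PaTu 8988T. For NCAPG, limma gave a log2 fold change of -1.59 ± 0.0675 for PANC-1 (adjusted p = 1.73e-08), -1.10 ± 0.142 for MIA PaCa-2 (adjusted p = 0.00172) and -0.10 ± 0.0463 for PaTu 8988T (adjusted p = 0.105).

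NCAPD2, a subunit of the same complex, had a smaller log2 fold change than NCAPG in both PANC-1 and MIA PaCa-2. It went from 30.8, 29.8 and 30.002 FPKM to 18.1, 18.5 and 18.9 in PANC-1, from 113, 120.3 and 115 to 87.4, 89.4 and 89.4 in MIA PaCa-2 and from 58.1, 57.9 and 59.3 to 56.7, 59.7 and 57.97 in PaTu 8988T, where the groups overlapped. For NCAPD2, limma gave a log2 fold change of -0.70 ± 0.0356 for PANC-1 (adjusted p = 6.11e-08), -0.39 ± 0.0593 for MIA PaCa-2 (adjusted p = 0.00316) and -0.0082 ± 0.0358 for PaTu 8988T (adjusted p = 0.874). The others fell past 2-fold in PANC-1, at -1.47 for NCAPH, -1.27 for TOP2A, -1.27 for SMC4 and -1.08 for SMC2. In MIA PaCa-2, NCAPH fell by 0.80, whereas SMC4 (-0.82), TOP2A (-0.58) and SMC2 (-0.29) did not pass, and stood at -1.21, -0.83 and -0.57 without control replicate 2, where all 3 passed.

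Leaving out MIA PaCa-2 control replicate 2 changed which members passed in that line. Its log2 ratio to the mean of the other controls ran from -1.24 (SGO2) to 1.01 (CENPM), with a median of -0.40 over the members and 0.0097 over all genes tested. It lay below both other controls for 71.2% of members and for 46.5% of all genes. The standard deviation of the controls was at least 5 times that of the knockdown libraries in 40 members. Of the 19 members that did not pass, the library lay below both other controls in 18 and above both in 1. It also lay below both in 19 of the 33 that fell, and above both in 11. By sub-complex it was the lowest control for 5 of 5 checkpoint genes, 5 of 5 cytokinesis genes, 12 of 15 kinetochore genes, 5 of 6 condensin and topoisomerase genes, 7 of 12 spindle genes and 3 of 5 anaphase genes, and the highest for 4 of 4 passenger genes. The cause of its deviation was not tested.

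Across the 52 members, log2 fold changes in PANC-1 and MIA PaCa-2 had a Pearson's r of 0.67 and a Spearman's rho of 0.59. Between PANC-1 and PaTu 8988T these were 0.34 and 0.30, and between MIA PaCa-2 and PaTu 8988T 0.056 and 0.0074. Members of a line share their libraries, so the points are not independent. Between the log2 control level of a member and its log2 fold change, r was -0.25 (rho -0.17) in PANC-1. The same relation gave -0.40 (rho -0.37) for MIA PaCa-2. For PaTu 8988T it gave 0.10 (rho 0.028).

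The difference of the knockdown effect between lines was tested directly, as an interaction in a limma fit of all 18 libraries over the 9083 genes with a mean of at least 1 FPKM in every line. Gene lengths behind the FPKM were the same in PANC-1 and the other lines for 23 of the 52 members. Between MIA PaCa-2 and PaTu 8988T they were the same for all 52. Levels are therefore not compared between lines, whereas the length cancels in a fold change. Where lengths differ, the reads counted on a gene may differ too, which need not cancel. The part of this in the differences with PANC-1 was not tested. PANC-1 and MIA PaCa-2 differed in 26 members, against 43.4% of all genes. The effect was more negative in PANC-1 in 25 of them, against 17.3% of genes, and less negative in 1, CENPA, against 26.1%. By at least 1 on the log2 scale the effect was more negative in PANC-1 in 2 members, against 3.15% of genes. The 2 were CENPU and HJURP, both of the centromere. Without MIA PaCa-2 control replicate 1 or 3 there were 4.

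CENPU was at 5.49, 4.88 and 4.25 FPKM in the PANC-1 controls and 1.51, 1.79 and 1.99 after knockdown, and at 27.3, 16.3 and 27.6 and 20.6, 21.6 and 20.3 in MIA PaCa-2. Its effects of -1.41 and -0.15 differed by -1.27 (± 0.223, adjusted p = 0.000305). MIA PaCa-2 control replicate 2 was its lowest control, and without that library its effect in MIA PaCa-2 was -0.40 (adjusted p = 1.88e-05) and the difference -1.02 (adjusted p = 2.26e-06). At least 130 reads were counted on CENPU per PANC-1 library. HJURP was at 24.2, 24.3 and 23.5 FPKM in the PANC-1 controls and 6.76, 7.94 and 5.91 after knockdown, and at 48.98, 42.8 and 48.5 and 30.4, 28.8 and 27.9 in MIA PaCa-2. These effects differed by -1.12 (± 0.119, adjusted p = 2.49e-06), and those of CENPF by -0.97 (± 0.189, adjusted p = 0.000691). The same library was the lowest control for HJURP and CENPF, and without it these differences were -1.05 (adjusted p = 9.38e-08) and -0.73 (adjusted p = 6.4e-08), so that the difference of HJURP then exceeded that of CENPU. CENPA went the other way, by 0.40 (± 0.0887, adjusted p = 0.00193). HJURP and the histone that it loads differed between these lines in opposite directions.

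By sub-complex, PANC-1 and MIA PaCa-2 differed in 4 of 5 checkpoint genes, 5 of 6 condensin and topoisomerase genes, 9 of 15 kinetochore genes, 5 of 12 spindle genes, 2 of 5 cytokinesis genes, 1 of 5 anaphase genes and 0 of 4 passenger genes. The differences for the 4 passenger genes lay around a median of -0.018. MIA PaCa-2 control replicate 2 was the lowest control for 5 of 5 checkpoint genes and the highest for 4 of 4 passenger genes. The counts by sub-complex include that library and are not given without it. Its part in their order was not tested. Without MIA PaCa-2 control replicate 2, 34 members differed, 31 of them more negative in PANC-1. The share of all genes that differed in that fit is not given here.

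Both lines stood apart from PaTu 8988T. PANC-1 differed from it in 48 members (35.8% of all genes), and the effect was more negative in PANC-1 in all 48 (18.7% of genes), by at least 1 on the log2 scale in 36 (3.27%). The largest differences were -2.03 for ANLN (± 0.177, adjusted p = 3.53e-07), -1.96 for SPC25 (± 0.120, adjusted p = 9.06e-09) and -1.80 for NDC80 (± 0.173, adjusted p = 9.35e-07). SGO2, CENPK, CKAP2 and ECT2 did not pass, with differences of -0.29, -0.45, -0.57 and -0.44. The fit pools the spread of all 18 libraries, that of MIA PaCa-2 control replicate 2 included.

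MIA PaCa-2 differed from PaTu 8988T in 39 members (52.9% of all genes), all more negative in MIA PaCa-2 (31.0% of genes), 16 of them by at least 1 (4.24%). TACC3 differed most, by -1.83 (± 0.105, adjusted p = 1.77e-09), followed by SPC25 at -1.68 (± 0.120, adjusted p = 1.86e-08) and CENPN at -1.53 (± 0.119, adjusted p = 4.46e-08). Without MIA PaCa-2 control replicate 2, 50 members differed, all in that direction. The share of all genes that differed in that fit is not given here, so this count cannot be set beside it. Leaving that library out raised the share of all genes that fell in MIA PaCa-2 from 21.7% to 39.8%.

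Other genes of the same pathways were taken from lists that do not overlap the members. Of 95 such genes, 59 fell and 17 rose among the 94 tested in PANC-1, 8 of them past 2-fold. In MIA PaCa-2, 42 fell, 7 past 2-fold, and 4 rose among 95, and in PaTu 8988T 6 fell and 25 rose among 94. Their medians were -0.22, -0.32 and 0.063, nearer to 0 than those of the members in PANC-1 and MIA PaCa-2.

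The list of the anaphase-promoting complex held subunits of this ubiquitin ligase, which CDC20 activates, and also FZR1, UBE2C and UBE2S, which are not subunits. Most genes of the list were not lower in PANC-1, where CDC20 fell. Of 17 genes of this list 3 fell and 8 rose there, with a median of 0.10, against 32.2% and 40.1% of all genes. In MIA PaCa-2, 5 fell and 1 rose around a median of -0.20, against 21.7% and 18.7%. ANAPC13, a small scaffold subunit, rose by 0.64 on the log2 scale in PANC-1 (adjusted p = 3.78e-07) and by 0.56 in PaTu 8988T, and stood at 0.13 in MIA PaCa-2. UBE2S, a ubiquitin-conjugating enzyme that works with the complex, fell by 0.61 in PANC-1 and by 1.06 in MIA PaCa-2, and rose by 0.29 in PaTu 8988T.

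Cohesin, the ring that separase opens, had 3 of 10 genes lower and 4 higher in PANC-1, around a median of 0.091, which were shares near those of all genes. In MIA PaCa-2, 3 fell and none rose around -0.073. CDCA5 (sororin), which stabilises cohesin until mitosis, had a log2 fold change of -1.04 in PANC-1, -0.89 in MIA PaCa-2 and 0.053 in PaTu 8988T. RAD21, the subunit that separase cuts, stood at -0.27, -0.24 and 0.081.

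Mitotic entry genes stood closer to the members, with 7 of 9 lower and 2 higher in PANC-1 and a median of -0.91. The cyclins CCNA2 and CCNB1 fell by 1.16 and 0.91 on the log2 scale in PANC-1 and by 0.73 and 0.70 in MIA PaCa-2, and stood at 0.20 and 0.10 in PaTu 8988T. WEE1, the kinase that holds back CDK1 and a gene named after its values were seen, rose in all 3 lines, by 0.56, 0.77 and 0.23.

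Of 19 further kinetochore and centromere genes tested in PANC-1, 14 fell and 1 rose, with a median of -0.43. ZWINT, a partner of KNL1, stood at -0.85, -1.42 and 0.15 in the 3 lines, and the inner subunit CENPH at -0.76, 0.26 and -0.0081. Of 8 other checkpoint genes, 6 fell in PANC-1 around a median of -0.17, among them TRIP13 at -1.02 and KNTC1 at -0.94. All 5 genes of condensin II and other chromosome structure fell in PANC-1 (median -0.47), with the proliferation marker MKI67 at -1.249 and NCAPG2 at -0.69. In the augmin and gamma-tubulin list, 12 of 15 fell there (median -0.23), with HAUS2 at -0.98 and TUBG1 at -0.56. In the list of other cytokinesis genes, 9 of 11 fell and 2 rose (median -0.47), with the septin SEPTIN7 at -0.94 and the abscission factor CHMP4B at -0.93.

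The 12 mitotic kinesins, the motors of the same spindle, all fell in PANC-1, 4 of them past 2-fold, with a median of -0.93. In MIA PaCa-2, 9 fell around -0.74, and in PaTu 8988T 2 rose and none fell around -0.051. The 11 genes of the replicative helicase, which act in S phase, all fell in PANC-1 (median -0.81, 3 past 2-fold) and in MIA PaCa-2 (-0.68, 1 past 2-fold), and 6 rose in PaTu 8988T (0.14). Centriole duplication genes, whose products, like OFD1, sit at the centriole, stood at -0.41, -0.23 and -0.027, with 9 of 11, 1 of 10 and 0 of 11 lower. The members thus had a lower median than each of these 3 lists in PANC-1. In MIA PaCa-2, with all its libraries, the kinesins had the lower one, at -0.74 against -0.71. Without control replicate 2 the member median was -0.83. That of the kinesins is not given without it, so this order is uncertain. No test was made between lists.

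Reads on 17 of the 52 members can overlap exons of a gene on the opposite strand, 11 of them protein-coding, among them ANLN, CENPN, NCAPG, PLK1, SGO2, SMC4 and CENPU. Whether counting used strand is not given in the sources used here, so reads of these pairs cannot be told apart.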

How the data were processed

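The 18 libraries stood in a single deposited table. Per the study's methods, the authors aligned reads with HISAT2, counted them per gene with HTSeq-count, calculated FPKM and tested with DESeq2. The deposited FPKM values were thus scaled to gene length and library size. The submitters' processing notes list hg38, GRCm38 and mm10 with no role, and the annotation is not given in the sources used here. Every value above 0 was a whole multiple of a gene- and library-specific step, which gave the reads per library.

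Groups followed the sample titles. In both groups the source labels of PaTu 8988T replicates 2 and 3 give a line name whose number rises with the replicate, whereas the titles name PaTu 8988T. Whether these labels stand for other lines is not settled. The members, lists and naming rule were chosen with earlier results of these data known. Values per library were given for the lowest and highest mean change of each sub-complex, for up to 10 members past 2-fold in 2 lines, and for up to 6 with opposite calls. From each pathway list the 2 genes with the smallest p in PANC-1 were named.

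Genes averaging 1 FPKM or more over the libraries of a line were fitted as log2(FPKM + 0.1) with limma 3.58.1 (lmFit, and eBayes with a trend) in R 4.3.3, without a replicate block, and p-values were adjusted over all genes tested. This scale understates changes of low genes. The fit was tested on simulated data. Count tests were not run. Gene positions came from GENCODE (GRCh38). The alternatives were other pseudocounts, filters and scalings, no trend, array weights, a replicate block, 1 fit of 18 libraries and leaving out each library.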

Additional observations from a re-analysis of the deposited data

Results flagged for a closer look

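The change on knockdown differed between lines by a test of the difference itself. PANC-1 and MIA PaCa-2 differed in 26 of 52 members, a share near the 43.4% of all genes that differed. PANC-1 and PaTu 8988T differed in 48 (35.8% of all genes), and MIA PaCa-2 and PaTu 8988T in 39 (52.9%). Between PANC-1 and MIA PaCa-2 the log2 fold changes differed most for CENPU (-1.27), HJURP (-1.12) and CENPF (-0.97), all more negative in PANC-1. MIA PaCa-2 control replicate 2 was the lowest control of its line for all 3 genes. Without it the differences were -1.02 for CENPU, -1.05 for HJURP and -0.73 for CENPF, with HJURP then ahead of CENPU. In that fit 34 members differed, and the share of all genes is not given here.

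Between PANC-1 and PaTu 8988T the largest differences were those of ANLN (-2.03), SPC25 (-1.96) and NDC80 (-1.80). Between MIA PaCa-2 and PaTu 8988T they were those of TACC3 (-1.83), SPC25 (-1.68) and CENPN (-1.53). The log2 fold change of OFD1 was -1.07 in PANC-1, -1.10 in PaTu 8988T and -0.61 in MIA PaCa-2. The part of the size of the OFD1 fall in these differences was not tested.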

How the results depend on the processing

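Of 345 settings of the counts and spreads, 332 stayed within 1.5 times or 1 SD of the reported value. With array weights, 51 members fell in MIA PaCa-2, the spread of its sub-complex medians was 0.54, and 11 members fell and 20 rose in PaTu 8988T. One fit of all 18 libraries gave 1 and 3 in PaTu 8988T. The shares of all genes with array weights and in that fit are not given here. Leaving out 1 library at a time gave 29 to 52 falling members and a spread of 0.53 to 0.76 in MIA PaCa-2, with the 52 and the 0.53 both without control replicate 2. The number of members more negative in PANC-1 than in MIA PaCa-2 by at least 1 was 1 with a pseudocount of 1, 1 with a filter at a mean of 5 FPKM, and 2 to 4 with a library left out (4 without MIA PaCa-2 control replicate 1 or 3). SGO2 in MIA PaCa-2 turned from 0.18 to -0.23 (adjusted p = 0.00455) with array weights, and over the libraries left out it ran from -0.23 (adjusted p = 0.00228, without control replicate 2) to 0.41. CENPK ran from -0.16 (adjusted p = 0.0437, without the same library) to 0.47. The cause was not tested. For single members, their differences between lines and promoter words, 1421 settings kept direction and call, 33 lost the call and 25 gained it.

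Replicate numbers did not pair the libraries, with correlations of same-numbered deviations from -0.11 to 0.13. With a replicate block, 52, 32 and 6 members fell in PANC-1, MIA PaCa-2 and PaTu 8988T, 7 rose in PaTu 8988T, and 25, 48 and 38 differed between the pairs of lines. Of the members named with values, the block took BUB3 in MIA PaCa-2 (adjusted p = 0.0573) and AURKB in PaTu 8988T (adjusted p = 0.0736) over the threshold and changed no other call. In a promoter window of 100 bases before to 50 after the start, 32 members held TTTGAA or TTTAAA and 25 held CCAAT. Depth limits CENPM, CENPU and SPC25 most, with 115, 130 and 132 reads in their lowest PANC-1 library.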
